A study of Mus musculus with 12 samples.

Results

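Trbv genes are the variable segments of the T cell receptor beta chain. The files held 35 symbols that start with Trbv among 35492 gene symbols, and all 35 were taken. Each segment was expressed as a share of the summed Trbv TPM of its library, which is called usage here; TPM is a transcript abundance corrected for length and scaled to a fixed library total. The 12 RNA libraries of mouse CD4+ T cells form 4 groups of 3, and all mice are labelled C57BL/6J and 7 weeks old. Tfh_tumour cells were sorted as CD4+ CXCR5+ PD1+, surface proteins that mark follicular helper T cells (Tfh), from MC38 tumours, which are grown from a mouse colon carcinoma line. Tfh_WT cells were naive T cells of wild-type spleen and lymph nodes, cultured on plates coated for CD3 and CD28 with IL-6 and IL-21 (50 ng/ml each) and antibodies blocking IL-4, IFNγ and TGFβ. Tfh_OTII cells were given that culture after isolation from OT-II mice. Th1_WT cells were naive wild-type cells cultured with IL-12 (10 ng/ml) and a blocking antibody to IL-4. The protocol for these cultures names wild-type mice alone, and OT-II comes from titles and source names. By title, the wild-type cultures lasted 24 h and the OT-II culture 48 h, but the protocol states 48 h for Th1 and Tfh conditions alike, so time and OT-II origin cannot be told apart if the titles hold.

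A beta chain gene is assembled in the thymus when 1 variable segment is joined to a diversity and a joining segment, upstream of a constant gene, and the variable segment encodes most of the part that contacts antigen. A wild-type CD4+ population holds many clones, so many segments are transcribed side by side. OT-II mice carry transgenes for a receptor that recognises an ovalbumin peptide on a class II molecule, and antibodies against Vα2 and Vβ5 are used to stain their T cells. The older name Vβ5 covers the Trbv12 segments. A transgenic beta chain is known to hold back, though not always fully, the rearrangement of endogenous beta genes. The labels name no deletion of a recombination gene in the OT-II mice. They do not describe the transgene's promoter either.

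The segments lie on mouse chromosome 6 (GRCm38), from Trbv1 at 40891229 to Trbv31 at 41558452. Trbv1 stands apart upstream, and the block from Trbv2 to Trbv30 spans 41047340 to 41281990. Both constant genes follow, Trbc1 at 41538218 to 41539881 and Trbc2 at 41546730 to 41548352. Trbv31 lies beyond them on the minus strand, whereas the other 34 segments are on the plus strand. GENCODE classes 22 of the segments as TR_V_gene and 13 as TR_V_pseudogene, namely Trbv6 to Trbv11, Trbv12-3, Trbv18, Trbv22, Trbv24, Trbv25, Trbv27 and Trbv28. RefSeq differs for a pair of them, with Trbv29 as a pseudogene and Trbv24 as a variable segment.

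The Trbv12 and Trbv13 segments alternate along the locus and are close copies within each family, so their sequences bear on how far reads can be split between them. Trbv12-1 (Tcrb-V5.2 in older names) and Trbv12-2 (Tcrb-V5.1) matched at 340 of 385 aligned bases (88.3%). Below are the last 150 bases of the germline V exon of each, 5′ to 3′ on the plus strand, read from the GENCODE transcripts, and capitals mark the 14 positions at which they differ.
Trbv12-1, chr6:41113918-41114067: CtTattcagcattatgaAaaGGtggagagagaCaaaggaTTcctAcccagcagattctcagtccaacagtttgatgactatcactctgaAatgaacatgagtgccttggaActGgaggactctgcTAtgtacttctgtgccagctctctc
Trbv12-2, chr6:41119215-41119364: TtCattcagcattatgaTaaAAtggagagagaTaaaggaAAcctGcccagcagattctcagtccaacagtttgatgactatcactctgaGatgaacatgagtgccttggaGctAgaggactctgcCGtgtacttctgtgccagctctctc
The shared run near the 3′ end encodes the start of the third antigen-contacting loop. Of the 31-base words in the Trbv12-2 transcript, 10.4% also occur in another annotated gene, against 3.9% for Trbv12-1 and 6.73% for Trbv12-3. The division of reads among the 3 is therefore uncertain to that extent.

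The 3 Trbv13 segments, Trbv13-1 (Tcrb-V8.3), Trbv13-2 (Tcrb-V8.2) and Trbv13-3 (Tcrb-V8.1), form the other set of close copies. Identity ran from 85.3% for Trbv13-1 and Trbv13-3 to 90.6% for Trbv13-2 and Trbv13-3. Their last 150 bases are shown because the family moved unevenly between the groups, and capitals mark the 35 positions at which not all 3 hold the same base.
Trbv13-1, chr6:41116319-41116468: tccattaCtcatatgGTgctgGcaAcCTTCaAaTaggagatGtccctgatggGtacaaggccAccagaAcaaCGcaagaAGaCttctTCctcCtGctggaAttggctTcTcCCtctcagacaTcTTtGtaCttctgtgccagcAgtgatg
Trbv13-2, chr6:41121683-41121832: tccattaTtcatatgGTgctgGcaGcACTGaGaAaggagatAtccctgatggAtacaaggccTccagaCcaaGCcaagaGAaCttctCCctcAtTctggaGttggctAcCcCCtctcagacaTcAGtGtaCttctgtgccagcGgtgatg
Trbv13-3, chr6:41130436-41130585: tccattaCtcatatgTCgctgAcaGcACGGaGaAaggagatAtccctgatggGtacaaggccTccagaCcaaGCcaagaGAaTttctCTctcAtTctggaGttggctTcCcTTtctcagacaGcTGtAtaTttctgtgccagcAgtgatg
The share of 31-base words found in another gene was 1.88% for Trbv13-1, 11% for Trbv13-2 and 11.3% for Trbv13-3. Trbv4 (73.6%) and Trbv5 (78.7%) shared most of theirs with the overlapping gene model 5830405F06Rik, so their values are uncertain. That gene model is not among the symbols of the tables used here, so whether reads were divided with it is not known. Every such word of the pseudogene Trbv8 was shared. No word was shared in 25 of the 35 segments.

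In the 9 libraries other than Tfh_OTII, no segment exceeded a usage of 17%. Of the 35 segments, 21 had a mean of at least 1 TPM in each of the 4 groups, 19 were listed at 0 in no library, and 13 reached a mean usage of at least 5% in 1 or more groups. The leading segment differed between the groups: Trbv3 at 12.2 ± 3.07% in Tfh_tumour and 15.6 ± 1.21% in Tfh_WT, Trbv12-2 at 33.5 ± 0.68% in Tfh_OTII, and Trbv1 at 9.58 ± 4.41% in Th1_WT (SD, n = 3). In an exact permutation test over the 15400 ways of forming 4 groups of 3 libraries, 13 of 35 segments had an unadjusted p under 0.05. On scaled TPM (TPM divided by a median-of-ratios size factor), 35.2% of 23308 genes did so. Those genes all had a group mean of at least 1 TPM, which 8 of the 35 segments did not, and usage is another measure. The shares are therefore not like for like, and the count is given as a description. Among the segments, Trbv5 had the lowest p (0.00013), followed by Trbv20 (0.000779), Trbv3 (0.000844), Trbv31 (0.000974), Trbv12-2 (0.00117) and Trbv13-1 (0.00162). The smallest p that this permutation test can give is 6.49e-05.

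**Figure D1:**
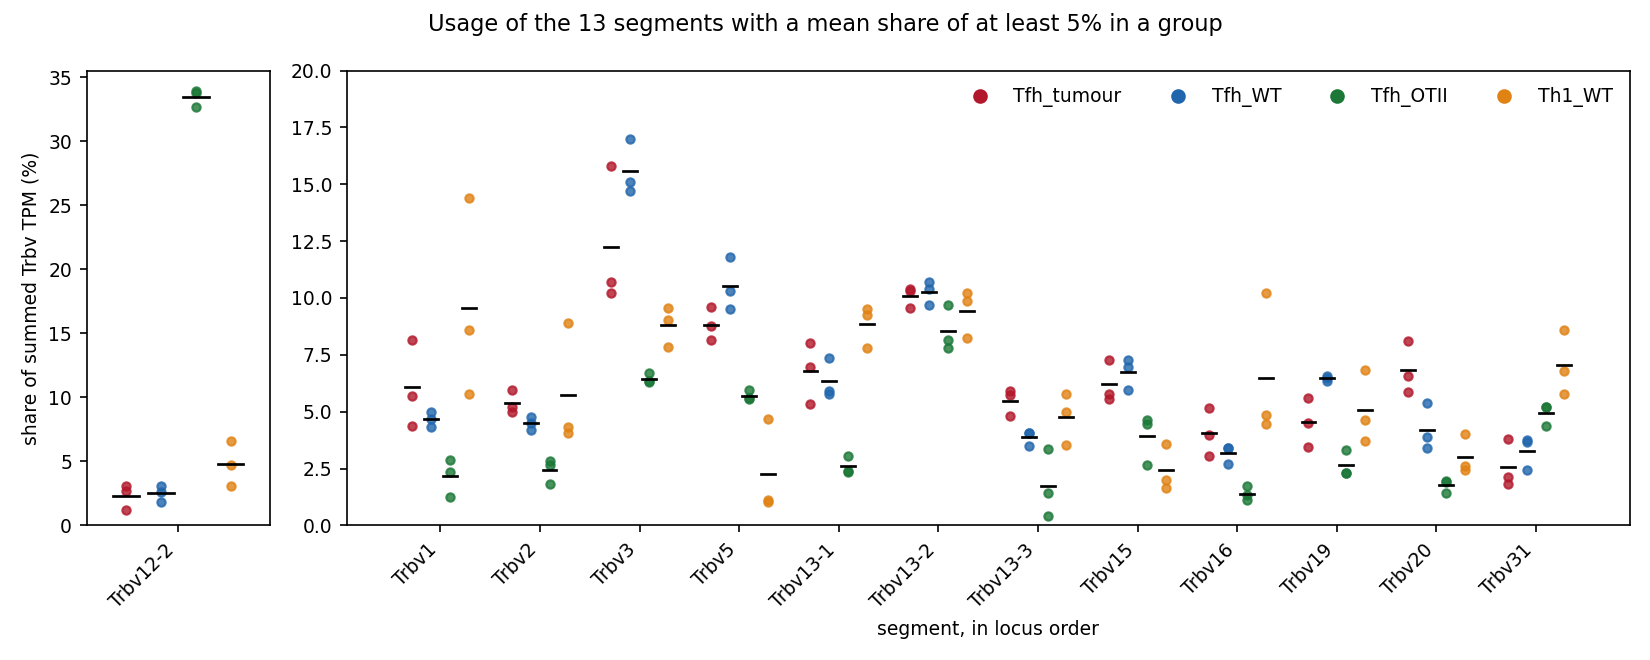
Usage of the 13 segments with a mean share of at least 5% in a group, as percent of summed Trbv TPM (y axis, separate scales in the left and right panels), by segment in locus order (x axis). Points are libraries, coloured by group, and black bars are group means of 3 libraries; Trbv12-2 stands at 32.7 to 33.9% in Tfh_OTII and at 6.59% or less in all other libraries.

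The libraries differed in ways that bear on TPM more than on usage. Size factors by median of ratios were 0.472 to 0.678 in Th1_WT and 1.09 to 1.43 in the other 9 libraries, so fold changes against Th1_WT depend on scaling. T cell markers were present in every library, with Cd3e from 37.3 to 361 TPM and Cd4 from 59.6 to 231 TPM. The summed level of 6 myeloid markers was 65.3 to 550 TPM in Tfh_tumour and at most 23.8 TPM elsewhere. The γδ T cell markers (5 of 7 in the files) summed to 40.8 to 53.9 TPM in Tfh_OTII and at most 8.19 TPM elsewhere. Regulatory T cell markers (Foxp3, Ikzf2 and Il2ra) summed to 699 to 999 TPM in Tfh_tumour, 425 to 605 in Tfh_WT, 392 to 437 in Tfh_OTII and 109 to 156 in Th1_WT. Foxp3, which defines these cells, was at 54.1 to 147, 12.9 to 31.7, 1.66 to 2.19 and 0.547 to 1.53 TPM in the same order. The part of these differences in the results on Trbv segments was not tested. In bulk RNA, fewer cells that use a segment and less RNA per cell cannot be told apart.

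Trbv12-2 took up about 33.5% of the Trbv pool in OT-II cells and little of it in the other groups. Its usage was 33.8, 32.7 and 33.9% in Tfh_OTII, 3.07, 2.64 and 1.86% in Tfh_WT, 1.19, 2.66 and 3.05% in Tfh_tumour, and 6.59, 4.69 and 3.08% in Th1_WT. The OT-II libraries lay far above all the others and close to each other. Against the 9 other libraries (3.2 ± 1.59%, SD) usage was 30.3 percentage points higher, a ratio of means of 10.4 (p = 0.00909 in the exact permutation test, two-sided, which cannot go lower with 3 against 9 libraries). Those 9 pool unlike groups. Against Tfh_WT alone the libraries did not overlap either, but the smallest possible p is 0.1 there. Its level was 109, 104 and 113 TPM in Tfh_OTII, against 19.9, 13.7 and 9.67 TPM in Tfh_WT, 4.7, 11.7 and 11.7 TPM in Tfh_tumour, and 9.82, 12.9 and 6.34 TPM in Th1_WT. With limma, the log2 fold change of TPM + 1 from Tfh_WT to Tfh_OTII was 2.89 ± 0.35 (SE, adjusted p = 0.00107), and Trbv12-2 was the only 1 of the 27 Trbv segments tested that was called higher. Over the 12 alternatives to that fit the adjusted p ran from 0.00105 to 0.00827.

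The close copy Trbv12-1 stayed within the range of the other groups. Its usage was 1.16, 1.77 and 1.39% in Tfh_OTII, 1.24, 1.09 and 1.49% in Tfh_WT, 2.06, 1.07 and 2.83% in Tfh_tumour, and 1.85, 0.988 and 0.505% in Th1_WT. The OT-II values fell inside the range of the others, with a difference of means of -0.017 percentage points (exact permutation p = 0.991). Its TPM was 3.75 to 5.62 in Tfh_OTII and 5.66 to 8.05 in Tfh_WT (log2 fold change -0.52 ± 0.33, limma adjusted p = 0.583). Of the TPM summed over both segments, Trbv12-2 made up 96.7, 94.9 and 96.1% in Tfh_OTII and between 36.7 and 85.9% in the other libraries. The pseudogene Trbv12-3 was at 2.94, 0.682 and 1.43 TPM in Tfh_OTII. It was listed at 0 in 6 of the 9 other libraries, and at 0.56, 1.27 and 0.651 TPM in the 3 in which it was not. Its mean usage was 0.518 ± 0.356% in Tfh_OTII against 0.0676 ± 0.106% in the others (exact permutation p = 0.0273). Tfh_OTII replicate 2 (0.215%) was below Tfh_WT replicate 3 (0.244%). Trbv12-3 reached a mean of 1 TPM in Tfh_OTII alone, and 6.73% of its 31-base words also occur in Trbv12-2, so these values are descriptions. Limma did not call its TPM (log2 fold change 0.94 ± 0.42, adjusted p = 0.353).

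**Figure D2:**
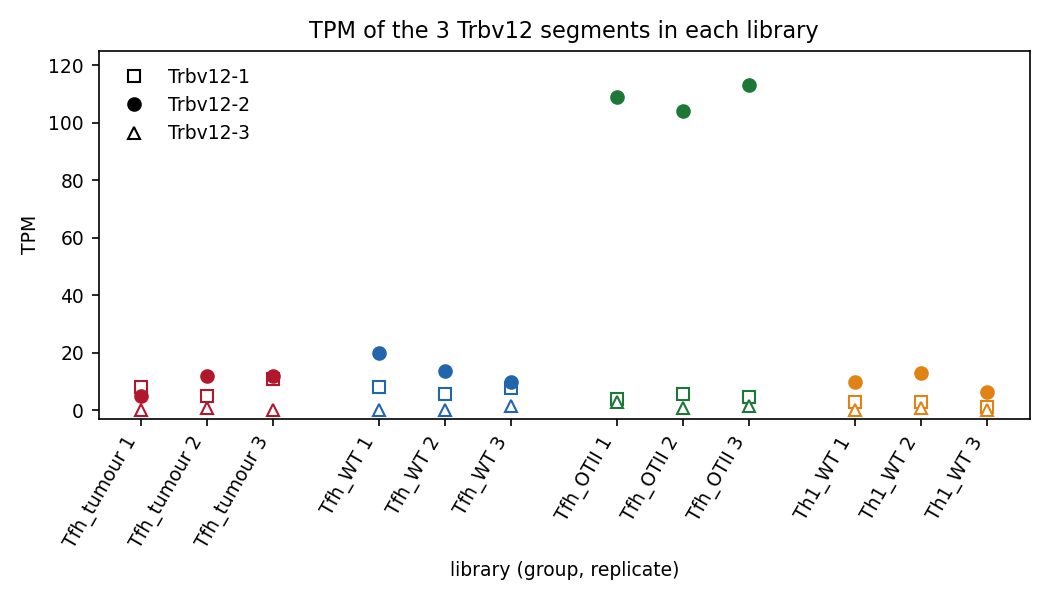
TPM (y axis) of the 3 Trbv12 segments in each of the 12 libraries (x axis, grouped by group), 1 symbol per segment. Trbv12-2 stands at 104 to 113 TPM in the Tfh_OTII libraries and at 19.9 TPM or less elsewhere, whereas Trbv12-1 and Trbv12-3 stay at or below 10.9 TPM in every library.

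Most other abundant segments were used less in OT-II cells. Over the 35 segments, 13 had an unadjusted exact permutation p under 0.05 in Tfh_OTII against the 9 other libraries, 4 higher and 9 lower. The same test on scaled TPM put 11.9% of 23308 genes higher and 7.5% lower, against 4 of 35 segments (higher) and 9 of 35 (lower) for usage. Shares of a pool sum to a constant, so a high share of Trbv12-2 lowers the other shares by itself, and the 2 sets of values below separate usage within the whole pool from usage among the remaining segments. With the Trbv12 segments left out of the denominator, 9 of 32 segments passed, 5 higher and 4 lower. Those higher were Trbv13-2, Trbv21 (2.85 ± 1.09% against 0.554 ± 0.328%, SD, exact permutation p = 0.00909), Trbv23 (2.86 ± 1.29% against 1.52 ± 0.673%, p = 0.0273), Trbv24 (3.31 ± 1.42% against 0.866 ± 0.662%, p = 0.0182) and Trbv26 (6.85 ± 1.07% against 4.08 ± 0.608%, p = 0.00909). Those lower were Trbv1, Trbv2, Trbv13-1 and Trbv16.

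Trbv3 (Tcrb-V16), the leading segment of the wild-type Tfh culture, was at 6.7, 6.37 and 6.29% in Tfh_OTII. It was at 14.7, 17 and 15.1% in Tfh_WT, 15.8, 10.2 and 10.7% in Tfh_tumour, and 7.86, 9.57 and 9.02% in Th1_WT. All 3 OT-II libraries lay below all others (difference -5.76 percentage points, exact permutation p = 0.00909). Its TPM was 20.2 to 21.6 in Tfh_OTII and 78.5 to 95.1 in Tfh_WT, a log2 fold change of -2.0 ± 0.27 (limma adjusted p = 0.0022). With the Trbv12 segments left out, it was not among the segments at p under 0.05.

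The Trbv13 segments moved unevenly. Trbv13-1 usage was 3.07, 2.35 and 2.38% in Tfh_OTII, 5.89, 5.78 and 7.36% in Tfh_WT, 6.96, 5.36 and 8.03% in Tfh_tumour, and 9.26, 7.8 and 9.53% in Th1_WT. OT-II values lay below all others (-4.73 percentage points, exact permutation p = 0.00909), and remained so among the segments other than Trbv12 (4.03 ± 0.654% against 7.71 ± 1.65%, exact permutation p = 0.00909). The log2 fold change of its TPM against Tfh_WT was -1.95 ± 0.23 (limma adjusted p = 0.000782).

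Trbv13-3 was at 0.4, 1.42 and 3.36% in Tfh_OTII, 4.05, 3.51 and 4.08% in Tfh_WT, 4.82, 5.72 and 5.93% in Tfh_tumour, and 3.53, 5.01 and 5.76% in Th1_WT. The OT-II libraries were below the rest but spread widely among themselves, and the highest of them came close to the lowest of the others (-2.98 percentage points, exact permutation p = 0.00909). Trbv13-2 was at 7.8, 9.71 and 8.17% in Tfh_OTII, 9.67, 10.4 and 10.7% in Tfh_WT, 9.57, 10.3 and 10.4% in Tfh_tumour, and 8.23, 9.88 and 10.2% in Th1_WT. The groups overlapped, with a difference of -1.37 percentage points (exact permutation p = 0.0455). That direction turned when the Trbv12 segments were left out of the pool: Trbv13-2 then stood at 13.2 ± 1.43% in Tfh_OTII against 10.4 ± 0.672% in the other libraries (difference 2.83, exact permutation p = 0.00909). Its TPM was 25.2 to 30.9 in Tfh_OTII and 54 to 62.5 in Tfh_WT (log2 fold change -1.02 ± 0.26, limma adjusted p = 0.0567).

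Trbv1 (Tcrb-V2), the segment farthest upstream, was at 2.86, 2.33 and 1.27% in Tfh_OTII, 4.7, 4.35 and 5.01% in Tfh_WT, 4.38, 8.14 and 5.71% in Tfh_tumour, and 5.76, 8.58 and 14.4% in Th1_WT. Trbv2 (Tcrb-V4) was at 2.66, 1.83 and 2.84% in Tfh_OTII, 4.18, 4.78 and 4.51% in Tfh_WT, 4.98, 5.2 and 5.96% in Tfh_tumour, and 8.89, 4.33 and 4.05% in Th1_WT. For both, every OT-II library was below every other library, by 4.63 percentage points in the means for Trbv1 and 2.76 for Trbv2 (exact permutation p = 0.00909 each). Trbv16 (Tcrb-V11) was at 1.12, 1.33 and 1.74% in Tfh_OTII, 3.41, 3.4 and 2.72% in Tfh_WT, 3.98, 5.17 and 3.06% in Tfh_tumour, and 4.45, 4.85 and 10.2% in Th1_WT. Its OT-II values were again the lowest (mean difference -3.18 percentage points, exact permutation p = 0.00909). Trbv1, Trbv2, Trbv13-1 and Trbv16 were the 4 segments that also passed as lower with the Trbv12 segments left out, Trbv2 at an exact permutation p of 0.0364 and the others at 0.00909.

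Trbv19 (Tcrb-V6) was at 3.33, 2.29 and 2.32% in Tfh_OTII, 6.37, 6.48 and 6.56% in Tfh_WT, 5.61, 3.47 and 4.51% in Tfh_tumour, and 4.63, 3.71 and 6.84% in Th1_WT. Trbv20 (Tcrb-V15) was at 1.43, 1.93 and 1.96% in Tfh_OTII, 3.87, 3.39 and 5.37% in Tfh_WT, 6.57, 8.1 and 5.86% in Tfh_tumour, and 2.42, 4.01 and 2.63% in Th1_WT. Neither overlapped with the other groups (-2.71 and -2.92 percentage points, exact permutation p = 0.00909 each). Trbv15 (Tcrb-V12) was at 2.67, 4.63 and 4.48% in Tfh_OTII, 7.27, 6.96 and 5.96% in Tfh_WT, 7.26, 5.78 and 5.56% in Tfh_tumour, and 2.02, 3.58 and 1.65% in Th1_WT. It overlapped with Th1_WT (exact permutation p = 0.382). Trbv5 (Tcrb-V1) was at 5.56, 5.94 and 5.59% in Tfh_OTII, below all Tfh_WT and Tfh_tumour libraries and above all Th1_WT libraries (exact permutation p = 0.582 against the 9).

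Mean usage was higher in Tfh_OTII than over the 9 other libraries for 16 of 35 segments, of which 4 passed the test: Trbv12-2, Trbv12-3, Trbv21 and Trbv24. Trbv12-3 is listed as a description, since it reached a mean of 1 TPM in Tfh_OTII alone. Trbv21 (Tcrb-V19) was at 1.02, 2.38 and 2.12% in Tfh_OTII, 0.629, 0.648 and 0.435% in Tfh_WT, 0.908, 0.246 and 0.344% in Tfh_tumour, and 0.958, 0.563 and 0% in Th1_WT. All OT-II values were above all others, the lowest of them narrowly so (difference 1.32 percentage points, exact permutation p = 0.00909). In TPM it was 3.31, 7.56 and 7.09 in Tfh_OTII and 4.07, 3.36 and 2.26 in Tfh_WT, which overlap, and limma did not call it (log2 fold change 0.68 ± 0.43, adjusted p = 0.587). Trbv31 (Tcrb-V14), the segment in reverse orientation downstream of the constant genes, was at 5.2, 5.2 and 4.38% in Tfh_OTII, 3.66, 3.76 and 2.46% in Tfh_WT, 1.83, 2.11 and 3.78% in Tfh_tumour, and 5.78, 6.81 and 8.6% in Th1_WT. OT-II cells stood between the Th1_WT libraries and the rest (exact permutation p = 0.618 against the 9), and its TPM was 14.7 to 16.8 in Tfh_OTII against 12.8 to 23.7 in Tfh_WT (log2 fold change -0.17 ± 0.33, limma adjusted p = 0.916). Without Th1_WT in the comparison, 17 of 35 segments had an exact permutation p under 0.05, 6 higher and 11 lower, where the test on scaled TPM put 13% of all genes higher and 10.5% lower. That set held Trbv17 and Trbv31 as higher and Trbv4, Trbv5 and Trbv15 as lower, none of which passed against all 9, whereas Trbv13-2 no longer passed.

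In the fit of log2(TPM + 1) over all genes, 27 segments passed the filter of a group mean of at least 1 TPM. Trbv10, Trbv11, Trbv12-3 and Trbv18, all pseudogenes, passed it through 1 group alone. Trbv10 and Trbv11 passed through Tfh_WT, and Trbv12-3 and Trbv18 through Tfh_OTII, so counts that include them are given as descriptions. The 8 that did not pass were Trbv6, Trbv7, Trbv8, Trbv9, Trbv22, Trbv25, Trbv27 and Trbv28, also pseudogenes, and none of them exceeded 2 TPM in a library. From Tfh_WT to Tfh_OTII limma called 1 segment higher (0.987% of 23308 genes called higher) and 9 lower (1.39% called lower): Trbv1, Trbv2, Trbv3, Trbv13-1, Trbv13-3, Trbv15, Trbv16, Trbv19 and Trbv20. None of the 4 that passed through 1 group is among these calls. The median log2 fold change was -0.84 over the 27, -1.02 over the 23 that passed through more groups, and 0.05 over all genes tested. Of the 3 regulatory T cell markers, 2 were called lower in Tfh_OTII. After median-of-ratios scaling, 1 was called higher (background 0.678%) and 7 lower (1.21%), without Trbv13-3 and Trbv15. Leaving out any 1 of the 6 libraries left 5 to 7 calls. Trbv12-2, Trbv2, Trbv3, Trbv13-1 and Trbv19 were called under all 12 alternatives, Trbv20 under 11, Trbv16 under 5, Trbv1 and Trbv13-3 under 4 each and Trbv15 under 2.

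**Figure D3:**
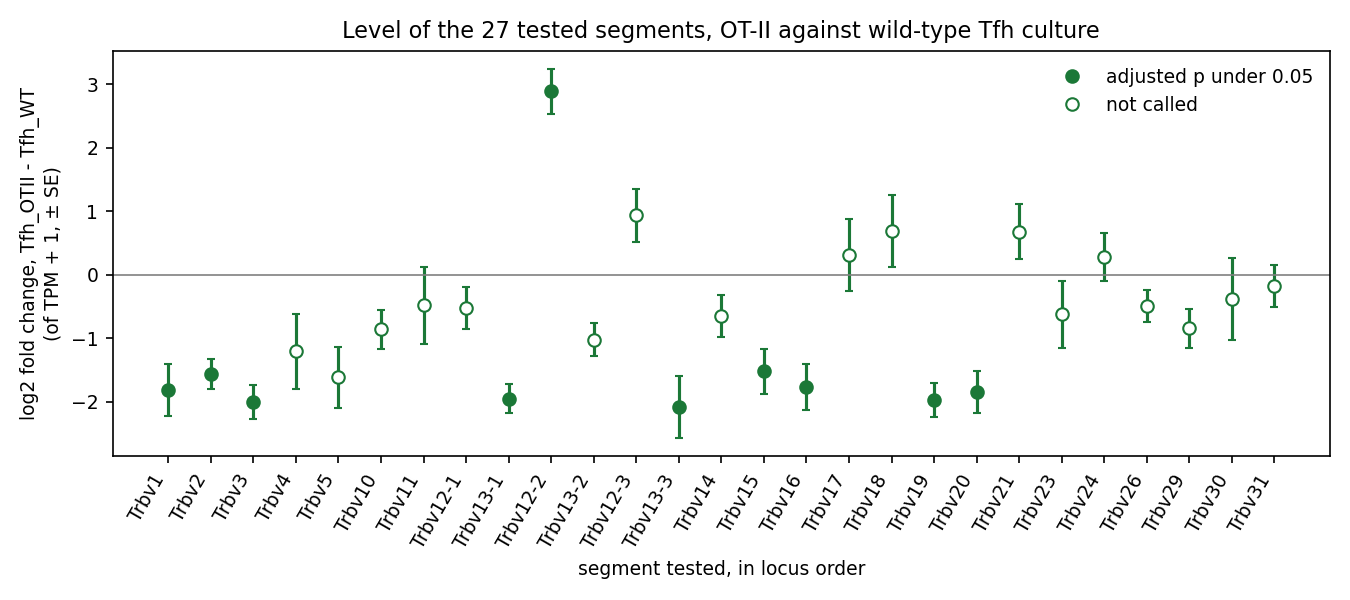
Log2 fold change of TPM + 1 from Tfh_WT to Tfh_OTII (y axis) with limma's standard error, for the 27 Trbv segments tested in locus order (x axis). Filled points have an adjusted p under 0.05; Trbv12-2 is at 2.89, the 9 other filled points lie between -2.08 and -1.52, and open points were not called.

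The level of variable segments relative to the constant genes also differed. Summed Trbv TPM was 323, 318 and 334 in Tfh_OTII, 646, 519 and 520 in Tfh_WT, 394, 439 and 383 in Tfh_tumour, and 149, 275 and 206 in Th1_WT. Summed TPM of Trbc1 and Trbc2, which encode the 2 constant regions of the beta chain, was 665, 716 and 759 in Tfh_OTII, 558, 454 and 473 in Tfh_WT, 390, 447 and 328 in Tfh_tumour, and 289, 456 and 541 in Th1_WT. In TPM as deposited, OT-II libraries thus had the highest constant gene levels and less variable segment RNA than the other Tfh groups. These sums depend on scaling and were not compared after it. Limma called 0 of the 2 Trbc genes from Tfh_WT to Tfh_OTII, as deposited or after scaling. After scaling it called 1 of them lower in Tfh_WT than in Th1_WT, where 5.35% of all genes were called lower. The ratio of Trbv to Trbc was 0.486, 0.444 and 0.441 in Tfh_OTII, 1.16, 1.14 and 1.1 in Tfh_WT, 1.01, 0.982 and 1.17 in Tfh_tumour, and 0.516, 0.603 and 0.38 in Th1_WT.

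The ratio was low in both Tfh_OTII and Th1_WT, whose libraries overlapped. Against all 9 other libraries the OT-II difference was -0.439 (exact permutation p = 0.0545), and against the 6 Tfh_WT and Tfh_tumour libraries it was -0.637 (exact permutation p = 0.0238, the smallest possible). With 1 library left out, the difference from the other libraries ran from -0.504 to -0.405. The value of -0.504 came without Th1_WT replicate 3. Its ratio was the only one below those of the OT-II libraries, so leaving it out removes the overlap by itself. Tfh_WT exceeded Th1_WT by 0.634 without overlap (exact permutation p = 0.1, the smallest that 3 against 3 allows). With Trbv12-2 taken out of the sum, the ratio was 0.322, 0.299 and 0.291 in Tfh_OTII, below the 0.368 to 1.13 of the other libraries (difference -0.566). Trbv12-2 held 32.7 to 33.9% of the sum in Tfh_OTII and 1.19 to 6.59% elsewhere. Its removal thus lowers the OT-II ratio most by itself, so this separation is a description. Trbv12-2 alone amounted to 0.145 to 0.164 of the constant gene level in Tfh_OTII and 0.0117 to 0.0356 elsewhere (exact permutation p = 0.00909).

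Usage was less even in OT-II cells. The effective number of segments, the exponential of the Shannon entropy of the shares, equals the number of equally used segments that would give the same entropy. It was 14.1, 13.1 and 13.6 in Tfh_OTII, 17.3, 17.1 and 17.6 in Tfh_WT, 17, 17.3 and 19.2 in Tfh_tumour, and 18.4, 19.5 and 14.7 in Th1_WT. All OT-II libraries were below the rest (difference -3.99, exact permutation p = 0.00909), and Th1_WT replicate 3 was nearest to them. Tumour cells and the 6 wild-type culture libraries overlapped (17.8 ± 1.18 against 17.4 ± 1.59, SD, exact permutation p = 0.833). The 5 highest segments of a library held 58.5 to 59.9% of usage in Tfh_OTII and 42.4 to 53.4% elsewhere. Both measures include Trbv12-2, which alone held 32.7 to 33.9% of usage in Tfh_OTII and 1.19 to 6.59% elsewhere. Evenness among the remaining segments was not tested, so these values show no general loss of evenness.

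**Figure D4:**
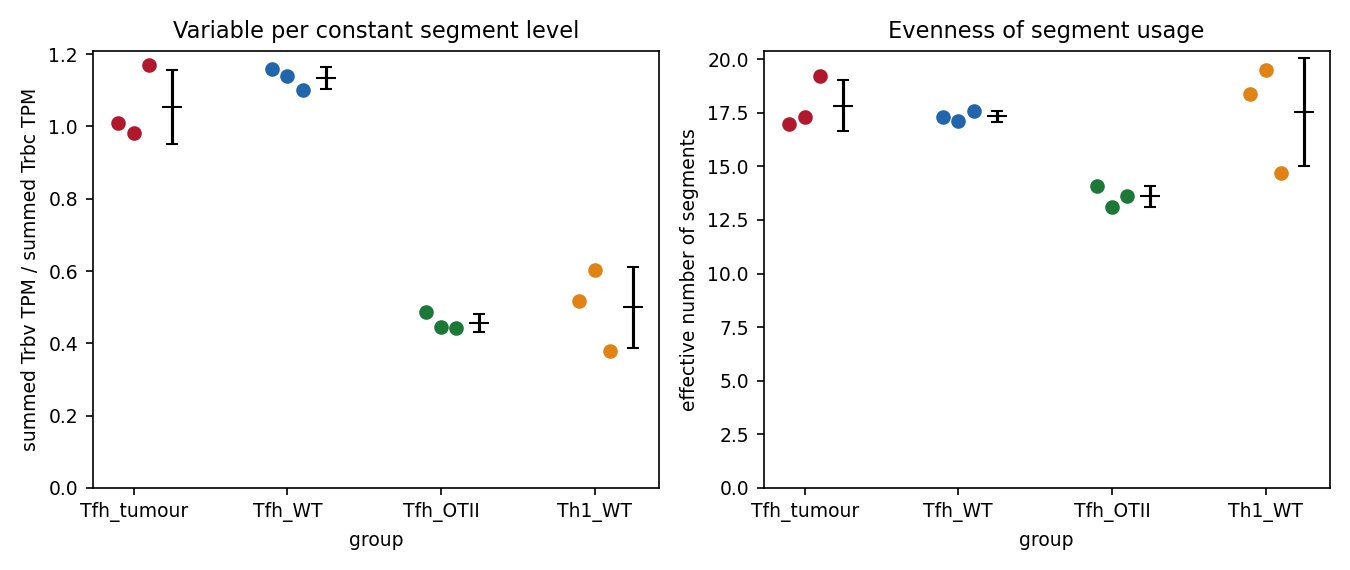
Left, summed Trbv TPM divided by summed Trbc TPM, and right, the effective number of segments (y axes), by group (x axes). Points are libraries, and black bars show the mean ± SD of 3 libraries; the ratio is 0.38 to 0.603 in Tfh_OTII and Th1_WT and 0.982 to 1.17 in the other groups, and the effective number is 13.1 to 14.1 in Tfh_OTII and 14.7 to 19.5 in the others.

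Segments classed as pseudogenes cannot give a receptor chain by themselves, yet some were transcribed. Their summed usage was 6.83, 1.86 and 3.95% in Tfh_OTII, 1.66, 2.15 and 2.07% in Tfh_WT, 0.782, 0.696 and 2.13% in Tfh_tumour, and 2.26, 2.36 and 1.47% in Th1_WT. A pair of OT-II libraries lay above all others and replicate 2 inside their range (difference 2.48 percentage points, exact permutation p = 0.0545). With 1 library left out the difference ran from 1.17 to 3.66 percentage points. It was highest without Tfh_OTII replicate 2, which removes the overlap by itself. Trbv24 made up much of this sum, at 2.92, 1.15 and 2.33% in Tfh_OTII and 0.198 to 2.26% in the other libraries (exact permutation p = 0.0182). RefSeq lists Trbv24 as a variable segment and Trbv29 as a pseudogene. With the RefSeq classes, which drop Trbv24 and add Trbv29, the sum was 6.95, 4.08 and 4.58% in Tfh_OTII and 2.8 to 5.86% elsewhere. Trbv29 itself was at 2.96 to 3.37% in Tfh_OTII and 1.54 to 5.49% elsewhere. Among the least abundant pseudogenes, Trbv6, Trbv9 and Trbv27 were above 0 in a single library each.

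In tumour-infiltrating Tfh cells, Trbv20 was the 1 segment whose usage passed the test against the wild-type cultures. Trbv20 was at 6.57, 8.1 and 5.86%, above each of the 6 wild-type culture libraries at 2.42 to 5.37% (difference 3.23 percentage points, 6.85 ± 1.15% against 3.62 ± 1.07%, SD). The exact two-sided permutation p was 0.0238, the smallest that 3 against 6 can give and unadjusted for the 35 segments. It was 1 of 35 segments higher and 0 of 35 lower, where the same test on scaled TPM gave 7.19% of all genes higher and 5.52% lower. Its TPM was 25.9, 35.6 and 22.5 in Tfh_tumour and 25, 17.6 and 27.9 in Tfh_WT, which overlap (limma log2 fold change 0.24 ± 0.33, adjusted p = 0.855). Leaving out any 1 tumour library keeps the values apart but raises the smallest possible p to 0.0714. The next lowest p was 0.0714 for Trbv26 (4.52 ± 0.612% against 3.58 ± 0.309%, exact permutation test), and leaving Trbv12 out of the pool gave 0.0476 for it.

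Limma called 0 of the 27 segments between Tfh_tumour and Tfh_WT, where 1.15% of all genes were called higher and 0.944% lower. At an unadjusted limma p under 0.05 there were 6, all lower in the tumour cells: Trbv3, Trbv10, Trbv19, Trbv24, Trbv29 and Trbv31, where 8.28% of all genes were higher and 5.74% lower at that threshold. Trbv10 entered the fit only through its level in Tfh_WT, and without the segments that passed through 1 group the count was 5 of 23. After scaling, Trbv19 alone was called lower (log2 fold change -1.09, limma adjusted p = 0.0472; background 1.11% higher and 1.22% lower), and over the 12 alternatives its adjusted p ran from 0.0472 to 0.313. Its TPM was 22.1, 15.2 and 17.3 in Tfh_tumour and 41.2, 33.6 and 34.1 in Tfh_WT, without overlap. The median log2 fold change of the 27 segments was -0.44, against 0.10 for all genes tested, and 23 of the 27 were below 0. Myeloid markers moved with this comparison, 4 of 6 being called higher in Tfh_tumour, as did 2 of the 3 regulatory T cell markers, and their part in the lower segment TPM was not tested.

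Both wild-type cultures started from naive T cells. For 10 of 35 segments the libraries of the groups did not overlap, 5 with higher usage in Tfh_WT and 5 with lower. On scaled TPM 20.9% of the genes with a group mean of at least 1 TPM were separated as higher and 12.4% as lower. The counts over the segments rest on usage without that filter. They are not like for like with these shares, and the values below are descriptions. No exact permutation p can fall below 0.1 with 3 against 3 libraries. Trbv5 was at 11.8, 10.3 and 9.53% in Tfh_WT and 1.02, 4.7 and 1.11% in Th1_WT, so Th1_WT replicate 2 stood well above its replicates. The tumour libraries, at 8.75, 9.59 and 8.15%, lay on the side of Tfh_WT. The mean usage of Trbv5 was 4.63 times that in Th1_WT, though most of its 31-base words are shared with the overlapping gene model, which is not a row of the tables used.

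Trbv3 (15.6 ± 1.21% against 8.82 ± 0.874%) and Trbv15 (6.73 ± 0.688% against 2.42 ± 1.03%) were also higher in every Tfh_WT library. The count of higher segments further includes the pseudogenes Trbv10 and Trbv22, both listed at 0 in all Th1_WT libraries. They stood at only 0.91 to 1.66 TPM (Trbv10) and 0.372 to 0.45 TPM (Trbv22) in Tfh_WT. With depth unknown, such low values cannot show that the groups differ. Higher in every Th1_WT library were Trbv31 (7.06 ± 1.42% against 3.29 ± 0.723%), Trbv1, Trbv12-2 (4.79 ± 1.75% against 2.53 ± 0.616%), Trbv13-1 (8.86 ± 0.933% against 6.34 ± 0.88%) and Trbv16 (SD, n = 3 for each mean). Trbv1 and Trbv16 varied within Th1_WT, where replicate 3 had 14.4% and 10.2%.

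As deposited, limma called 15 of 27 segments higher in Tfh_WT than in Th1_WT and 0 lower, where 41.1% of all genes were called higher and 0.511% lower. At an unadjusted limma p under 0.05 there were 18 higher and 0 lower, where 51.2% of all genes were higher and 0.777% lower. Without the segments that passed the filter through 1 group, limma called 14 of 23 higher. After scaling 4 were called higher and 0 lower, against 9.02% and 5.35% of all genes, a share near the background. Of these 4, Trbv10 entered the fit only through Tfh_WT, so its call is no support. The others were Trbv5 (log2 fold change 2.71), Trbv15 (1.79) and Trbv3 (1.18). Their TPM as deposited ran from 49.6 to 76.2 against 1.52 to 12.9 for Trbv5, and from 31 to 47 against 3.01 to 9.86 for Trbv15, with Tfh_WT first. The median of the 27 was 1.12 as deposited and 0.13 after scaling, beside 0.78 and 0.14 for all genes. Scaling turned the direction of 8 of the 27 segments from higher to lower in Tfh_WT: Trbv1 (0.49 to -0.54), Trbv12-2 (0.52 to -0.47), Trbv12-3 (0.15 to -0.08), Trbv13-1 (0.93 to -0.10), Trbv14 (0.72 to -0.09), Trbv16 (0.48 to -0.53), Trbv17 (0.75 to -0.02) and Trbv31 (0.32 to -0.69). Trbv13-1 was the only 1 of these called as deposited. All 3 regulatory T cell markers were called higher in Tfh_WT under both scalings, and their part in these differences was not tested.

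The distance between libraries summarises these differences as the percent of usage that would have to be moved from one segment to another to make them equal. Within groups the median over 3 pairs was 8.5 in Tfh_WT, 10.1 in Tfh_OTII, 13.5 in Tfh_tumour and 21.6 in Th1_WT, so the Th1 replicates differed most among themselves. Between Tfh_tumour and Tfh_WT it was 14.3 (8.63 to 16.8 over 9 pairs), which overlaps the 13.3 to 13.9 among tumour libraries. Tfh_WT and Th1_WT were 30.4 apart (20.4 to 31.5). Tfh_OTII was 39.7 from Tfh_WT, 40.8 from Tfh_tumour and 40.3 from Th1_WT. These are descriptions of library pairs, which share libraries, and were not tested.

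**Figure D5:**
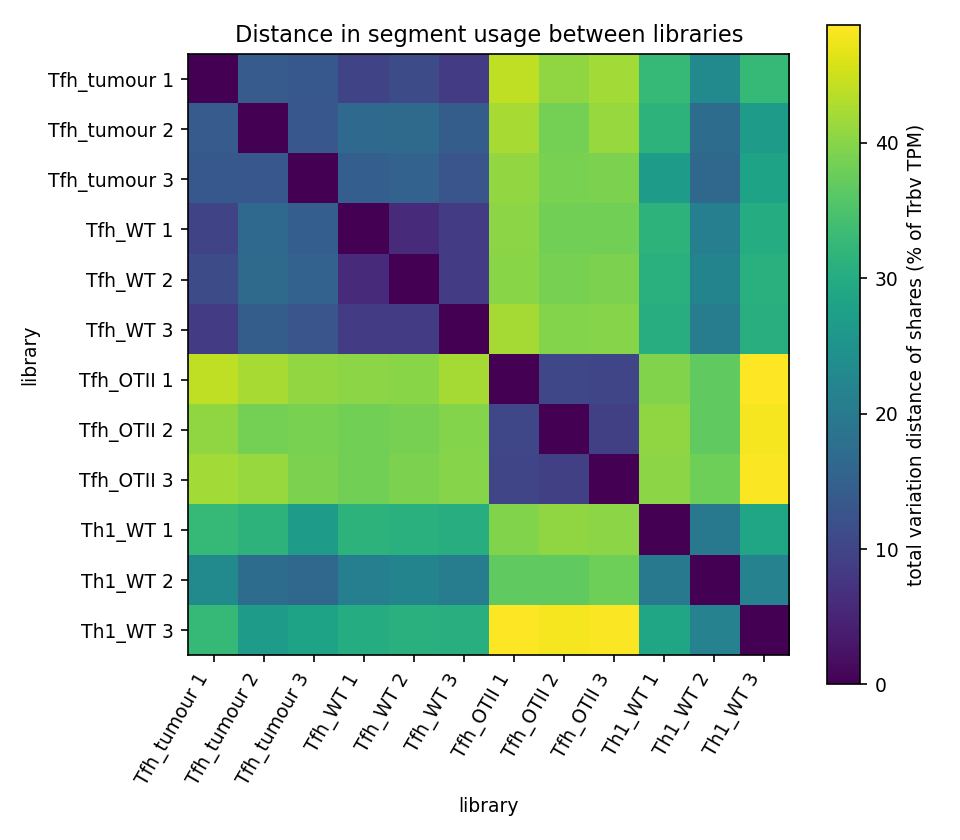
Distance in Trbv usage between each pair of the 12 libraries (both axes, ordered by group and replicate), with colour giving the percent of summed Trbv TPM that would have to be moved. Tfh_OTII forms a block of its own, at a median of 39.7 or more from each other group and 10.1 within; Tfh_tumour and Tfh_WT are a median of 14.3 apart.

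Other genes of the receptor loci were taken from lists of their symbols. Trbd1 and Trbd2, the diversity segments, were listed at 0 in all libraries, and their annotated sequences are very short. Of the 14 Trbj joining segments, 1 was called higher from Tfh_WT to Tfh_OTII and 0 lower, Trbj2-4, at 351 to 482 TPM in Tfh_OTII and at most 164 TPM in the other libraries (log2 fold change 2.11 ± 0.36, limma adjusted p = 0.00856). The Trbj models are 46 to 54 bases long, shorter than a read, so their TPM is uncertain. Among 128 Trav segments of the alpha chain, the exact permutation test of usage in Tfh_OTII against the 9 other libraries gave 69 at p under 0.05 (53.9%). Of these, 2 were higher and 67 lower, where the test on scaled TPM put 11.9% of all genes higher and 7.5% lower. Summed Trav TPM was 2630 to 2870 in Tfh_OTII and at most 1030 elsewhere, and shares of this pool sum to a constant too. High shares of some Trav segments thus lower the others by themselves. As deposited, limma called 2 of 116 Trav segments higher from Tfh_WT to Tfh_OTII and 4 lower, where 0.987% and 1.39% of all genes were called. In Tfh_tumour against the wild-type cultures the permutation test gave 5 of 128 (3.91%), beside 1 of 35 for Trbv. Dntt, which adds untemplated bases at the junctions, was at 4.19 to 5.91 TPM in Tfh_OTII and at most 2.4 TPM elsewhere. Rag2 was at 0.712 to 2.67 TPM in Tfh_OTII and 0.881 to 2.45 TPM in Tfh_WT, and Rag1 did not pass the filter. Limma called 0 of the 2 recombination genes tested, Dntt and Rag2, from Tfh_WT to Tfh_OTII, as deposited or after scaling. Of the 5 γδ markers tested, limma called 3 higher from Tfh_WT to Tfh_OTII as deposited and 0 lower, where 0.987% and 1.39% of all genes were called. These were Trdc (10.6 to 12.6 TPM in Tfh_OTII against 1.42 to 1.72 in Tfh_WT), Tcrg-C1 and Tcrg-C2. Trdv4 (1.79 to 4.7 against 0.499 to 1.03 TPM) and Sox13 (0.858 to 1.76 against 0.666 to 1.32 TPM) were not called. After scaling 2 were called higher, without Tcrg-C1 (limma adjusted p = 0.102).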

How the data were processed

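The authors deposited 1 table of TPM per library, made with kallisto on mm10 per the submitters' processing notes; version and annotation are not given in the sources used here. RNA came from 300000 cells per sample, per the labels, in stranded libraries depleted of ribosomal RNA and read as pairs of 75 bases. Each column sums to 1000000 TPM; counts were not used here, so depth is unknown and no counting interval is given.

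Usage was compared by exact two-sided permutation tests of library means (220, 84 or 20 arrangements), unadjusted, over 35 segments, using scipy 1.17.1 and numpy 2.4.6 under Python 3.11.15. The levels were compared with limma 3.58.1 (R 4.3.3) on log2(TPM + 1) in all 12 libraries, with 23308 genes at a group mean of at least 1 TPM and Benjamini-Hochberg adjustment over them; a gene is called at an adjusted p under 0.05. A pseudocount understates changes of low genes. Background shares for the permutation tests come from TPM divided by median-of-ratios size factors over 16404 genes. Positions, classes and sequences are those of GENCODE vM21, and all 35 symbols matched; older names are RefSeq synonyms. Both procedures were tested on simulated data.

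Values in every library are given for the Trbv12 segments, for segments with a mean usage of at least 5% in a group, and for up to 10 segments at the smallest possible p in the OT-II or the tumour comparison. Trbv23, Trbv24, Trbv26 and the segments that pass in only 1 setting were named with their values already known. Members and lists were chosen with earlier results of these data known. The labels do not say that replicates come from separate animals or cultures, so the p-values reflect spread among the libraries that may be technical alone. Alternatives changed the scaling, pseudocount, filter, libraries, denominator, length weighting, pseudogene classes and replicate block. Leaving out Th1_WT, leaving out Trbv4 and Trbv5, and the RefSeq classes were chosen after seeing the data.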

Additional observations from a re-analysis of the deposited data

How the results depend on the processing

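With the Trbv12 segments left out of the denominator, the OT-II difference in Trbv13-2 usage turned to 2.83, and median-of-ratios scaling turned Trbv13-1 between Tfh_WT and Th1_WT to -0.10. The count of segments at p under 0.05 in the OT-II comparison (13) was 0 against Tfh_WT alone, where the smallest possible p is 0.1. The tumour count (1) was 2 without Trbv12 in the denominator, 3 without Trbv4 and Trbv5, 0 against Tfh_WT alone and 0 under the replicate block (smallest possible p 0.0741); with 1 library left out it ran from 0 to 2. For the pseudogene share, length weighting gave 2.24 in the OT-II comparison, leaving out 1 library gave 1.17 to 3.66, and RefSeq classes gave -1.39 for the tumour (exact permutation p = 0.0476) and -0.801 for Tfh_WT against Th1_WT. For Trbv per Trbc, length weighting gave -0.271 for OT-II (exact permutation p = 0.0364) and 0.386 for Tfh_WT against Th1_WT; for OT-II, leaving out all Th1_WT libraries gave -0.637 and leaving out 1 library gave -0.504 to -0.405. Segments called by limma from Tfh_WT to Tfh_OTII (10) were 6 without a filter and 5 to 7 with 1 library left out. Between tumour and Tfh_WT (0) there was 1 after scaling and 1 without a filter, and between Tfh_WT and Th1_WT (15) there were 4 after scaling. Fewer libraries and, without a filter, more genes enter those fits; for the other changes the cause was not tested. Same-numbered libraries of different groups correlated at -0.386 to 0.303 over 18 pairs, and libraries of different number at -0.277 to 0.358 over 36. These values gave no sign that the numbers pair the samples, but with 3 libraries per group they cannot exclude it. With the replicate block limma called 8, 0 and 14 segments in the 3 comparisons. The permutation within replicate numbers was not run for Tfh_WT against Th1_WT. Trbv12-2 kept its call in 12 of 12 alternatives for TPM and in 18 of 19 for usage. Depth is unknown, so segments listed at 0 cannot be called absent.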
